A study of Mus musculus with 4 samples.

Results

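The genes of the guanylate cyclase C axis and the Ceacam adhesion molecules of surface colonocytes were followed by name through 4 bulk RNA-seq libraries of mouse colonoids. They are *Guca2a*, *Guca2b*, *Gucy2c*, *Ceacam1* and *Ceacam20*, taken by symbol, although they were chosen with earlier results of these data known. These 5 are among the 36144 gene names in the table of counts, and all 5 are among the 13977 genes with over 10 counts in at least 2 libraries, called the genes tested below although only fold sizes were compared. Colonoids, cultures of colonic epithelium grown in Matrigel from isolated crypts, came per the labels from a WT male mouse of 24 weeks and were used at passage 3. The study's methods describe crypts of the proximal colon and Hes1-GFP reporter mice as the source, so the labels and the methods differ on the genotype, which is shared by every group. All groups grew in medium with EGF, Noggin, R-spondin, CHIR99021 and Y-27632. The 4 groups were untreated colonoids at 48 h (day 2), colonoids given 2 mM sodium butyrate for 48 h, untreated colonoids at 72 h (day 3) and colonoids given 2 mM sodium butyrate for 72 h, with 1 library each. With 1 library per group no test was made, and the intervals given are 95% intervals for counting error only.

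*Guca2a* and *Guca2b* encode guanylin and uroguanylin, small peptides that colonic and intestinal epithelial cells secrete into the lumen. Both bind guanylate cyclase C, the product of *Gucy2c*, a receptor of the apical membrane that makes cyclic GMP and through it adjusts the transport of chloride, bicarbonate and sodium. Ceacam proteins are immunoglobulin-like adhesion molecules. CEACAM1 carries inhibitory tyrosine motifs that recruit the phosphatases SHP-1 and SHP-2, whereas CEACAM20, found on microvilli, carries an activating motif that is phosphorylated by Src-family kinases and binds the kinase Syk.

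The active peptides lie at the C-terminal ends of the 2 prohormones, and the coding sequence there is shown because it is what the 2 ligands share. The last 15 codons before the stop codon are given 5′ to 3′ from the GENCODE M21 transcripts (GRCm38), with the cysteine codons, whose products form the disulfide bonds of each peptide, in capitals. Of the 45 bases, 29 were identical (64.4%), and the 4 cysteine codons took the same positions in both genes.
*Guca2a*: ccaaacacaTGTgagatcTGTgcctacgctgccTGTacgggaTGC
*Guca2b*: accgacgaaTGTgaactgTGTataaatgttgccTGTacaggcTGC

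The 2 ligand genes are neighbours. In the GENCODE M21 annotation of GRCm38, *Guca2a* (ENSMUSG00000023247.2) lies at chr4:119637704-119639471 on the + strand and *Guca2b* (ENSMUSG00000032978.14) at chr4:119656607-119658954 on the − strand, with 17.1 kb between them. *Gucy2c* (ENSMUSG00000042638.14) lies at chr6:136697284-136781765 on the − strand. *Ceacam20* (ENSMUSG00000070777.5), at chr7:19965412-19991104 on the + strand, and *Ceacam1* (ENSMUSG00000074272.10), at chr7:25461707-25477603 on the − strand, share a chromosome but are 5.47 Mb apart. None of the 31-base words of the *Guca2a* and *Guca2b* transcripts occurred in another gene, so the counts of the 2 ligands could be kept apart. The transcripts of *Ceacam1* shared 36.2% of their 31-base words with *Ceacam2*, and the estimated counts divide such reads between the 2 genes. An antisense gene also overlaps *Ceacam1*. Whether counting used the strand is not given in the sources used here. The antisense gene is not among the gene names counted. It was also not among the genes with the largest shares of 31-base words in common with *Ceacam1*, of 0.219% or more. Whether reads of it were counted for *Ceacam1* was not tested.

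The 4 libraries held 20790225 to 24207840 counts, and genes of the mitochondrial genome took 14.1% to 18.4% of them. The epithelial markers *Epcam*, *Cdh1*, *Krt8*, *Krt18*, *Krt19*, *Vil1* and *Cldn7* summed to between 143284 and 158732 scaled counts per library, that is, counts divided by the DESeq2 size factor. The 7 leukocyte markers summed to 43.5 to 71.3 scaled counts and the 6 stromal and endothelial markers to 42.9 to 68.1, with *Col3a1* at 0 in all 4 libraries. Of the small intestine markers, *Fabp6*, *Lct* and *Apoa4* had at most 11 counts in any library, while *Sis* had 422 to 2357 and *Fabp2* 396 to 1004.

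All 5 genes were expressed in every library, from near the top of all genes tested to above the middle. To compare genes, counts were divided by merged exon length and rescaled to the same sum in each library (TPM). On this scale *Ceacam1* stood at 1159 in untreated colonoids at 48 h, *Guca2a* at 870, *Gucy2c* at 148, *Guca2b* at 62.6 and *Ceacam20* at 22.8. *Guca2a* ranked between 79 and 112 among all genes tested in the 4 libraries. The ligand guanylin was therefore among the most abundant transcripts of these cultures, with 5.86 to 7.48 times as much transcript per length as its receptor. *Ceacam20* was at or above 57.5% to 82.0% of the genes. The order of the 5 genes by this measure was the same in untreated colonoids at 72 h, with values of 1301, 978, 141, 50.05 and 15.1. In butyrate-treated colonoids at 48 h *Guca2a* (975) stood above *Ceacam1* (726). At 72 h with butyrate *Ceacam1* (811) was again above *Guca2a* (753). That crossing at 48 h depended on the length used: divided by the longest transcript, *Ceacam1* was above *Guca2a* in all 4 libraries (962 against 814 in the butyrate library at 48 h). At the lower end, the counting intervals of *Guca2b* and *Ceacam20* overlapped in both butyrate libraries, at 45.7 to 55.1 against 43.0 to 48.0 at 48 h and 25.4 to 33.3 against 24.6 to 28.7 at 72 h, and did not overlap in the untreated ones. Divided by the longest transcript, *Guca2b* was at 52.3 against 37.9 for *Ceacam20* with butyrate at 48 h and at 30.7 against 22.4 at 72 h, so this closeness also depended on the length used.

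**Figure D1:**
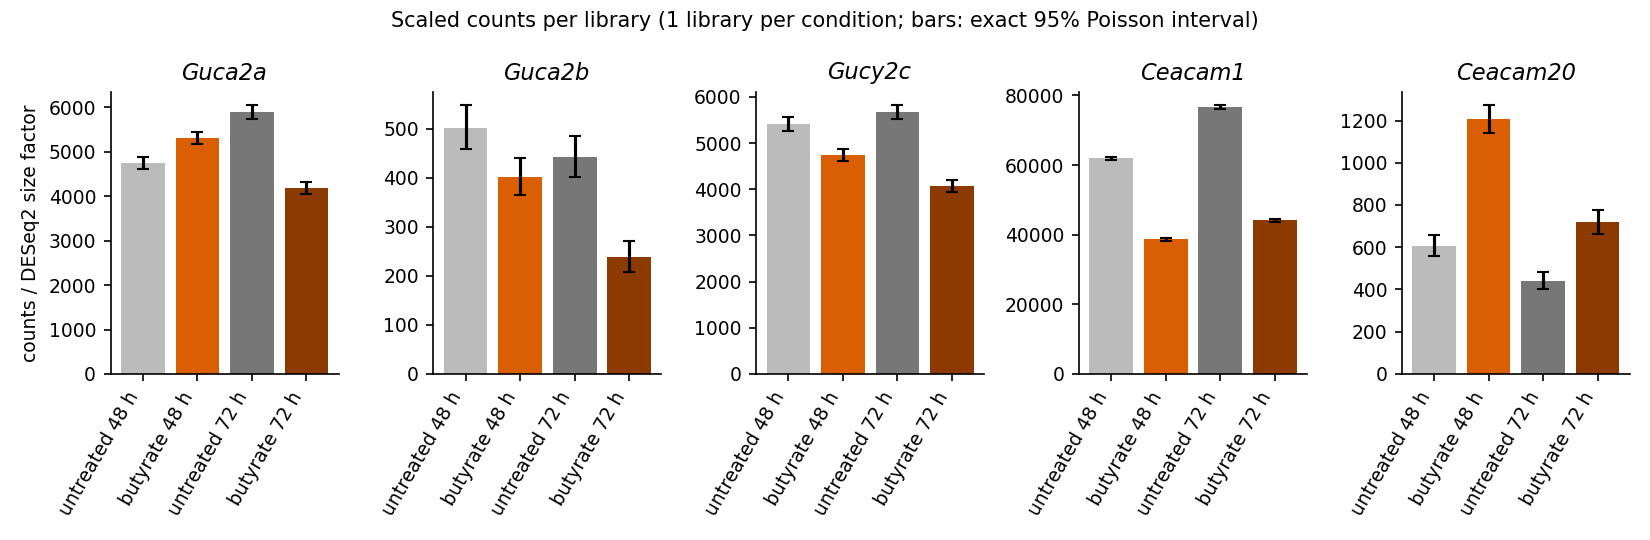
Scaled counts (counts divided by the DESeq2 size factor, linear axes from 0, a separate axis for each gene) of the 5 genes in the 4 libraries, with 1 library per bar and exact 95% Poisson intervals for counting error. *Ceacam1* is lower and *Ceacam20* higher in each butyrate library than in the untreated library of the same time, and *Guca2a* is slightly higher with butyrate at 48 h and lower at 72 h.

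With butyrate *Guca2a* was slightly higher and *Guca2b* and *Gucy2c* were lower than in untreated colonoids at 48 h, and all 3 were lower at 72 h. *Guca2a* had 4650 counts without and 5859 with butyrate at 48 h, and 5967 without and 3877 with it at 72 h. Scaled by size factors these were 4755, 5316, 5892 and 4187, so the highest level was that of the untreated library at 72 h and the lowest that of the butyrate library at the same time. The log2 fold change with butyrate came to 0.16 (0.11 to 0.22) after 48 h and −0.49 (−0.55 to −0.43) after 72 h, on the log2(scaled count + 1) scale used throughout. Guanylin transcript was thus on opposite sides of untreated at the 2 times, by 1.12-fold and 0.711-fold. In bulk RNA, fewer cells expressing a gene and less of its RNA per cell cannot be told apart, which holds for every gene here.

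*Guca2b*, the uroguanylin gene, was the least counted of the axis. It had 490 counts without and 442 with butyrate at 48 h, and 447 without and 220 with it at 72 h. The butyrate library at 72 h stood below the other 3, which lay close together, at 0.539-fold of the untreated library of its time. This gave a log2 fold change of −0.32 (−0.51 to −0.13) after 48 h of butyrate and −0.89 (−1.13 to −0.66) after 72 h. Among all genes tested, 20.6% had a fold change at or below that of *Guca2b* at 48 h and 4.66% at 72 h. The level was lower with butyrate at both times, and at 72 h by more than those of *Guca2a* and *Gucy2c*, whose intervals lay outside its own.

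The 2 ligand genes did not keep a fixed ratio. Within a library, *Guca2a* had 9.49 counts for each count of *Guca2b* without butyrate and 13.3 with it at 48 h, and 13.3 without and 17.6 with it at 72 h. This ratio needs no scaling between libraries. Butyrate went with a log2 change of 0.48 (0.29 to 0.68) after 48 h and 0.40 (0.16 to 0.64) after 72 h. The untreated libraries differed by as much, with a log2 change of 0.49 (0.30 to 0.69) from 48 h to 72 h. The shift towards guanylin with butyrate was therefore no larger than the one between 2 untreated cultures of different age.

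*Gucy2c*, which encodes the receptor, had 5287 counts without and 5224 with butyrate at 48 h, and 5739 without and 3763 with it at 72 h. Scaled, these were 5406, 4740, 5667 and 4064, so both butyrate libraries were below both untreated ones. Its log2 fold changes with butyrate were −0.19 (−0.25 to −0.13) after 48 h and −0.48 (−0.54 to −0.42) after 72 h. The receptor's difference at 72 h was close to that of *Guca2a*. The ratio of *Guca2a* to *Gucy2c* counts was 1.04 without and 1.03 with butyrate at 72 h, against 0.880 and 1.12 at 48 h. This is a log2 change of −0.01 (−0.10 to 0.07) after 72 h of butyrate and of 0.35 (0.27 to 0.43) after 48 h.

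*Ceacam1* and *Ceacam20* stood on opposite sides of untreated at both times. *Ceacam1*, the inhibitory adhesion receptor, was among the most counted genes of the epithelium, with 60580 counts in untreated colonoids at 48 h and 42628 with butyrate. At 72 h it had 77566 counts in untreated colonoids and 40842 with butyrate. These were 0.281%, 0.176%, 0.329% and 0.196% of all counts of their libraries, and both butyrate libraries were below both untreated ones. *Ceacam1* thus stood at 0.624-fold of untreated after 48 h of butyrate, a log2 fold change of −0.68 (−0.70 to −0.66), and at 0.576-fold after 72 h, or −0.80 (−0.81 to −0.78). Only 6.75% of all genes tested at 48 h and 5.46% at 72 h had a fold change as low or lower. *Ceacam2*, the gene that shares sequence with *Ceacam1*, was itself listed with 12 to 31 counts. GENCODE M21 lists 11 transcripts of *Ceacam1*, and counts per gene do not tell which of them differed.

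*Ceacam20*, the microvillus gene with an activating motif, had 593 counts without and 1328 with butyrate at 48 h. At 72 h the counts were 447 without and 665 with it. Scaled, the 4 libraries stood at 606, 1205, 441 and 718, so both butyrate libraries were above both untreated ones, with the highest level at 48 h. It was 1.99-fold of untreated after 48 h of butyrate, a log2 fold change of 0.99 (0.85 to 1.13), and 1.63-fold after 72 h, or 0.70 (0.53 to 0.88). At 48 h 92.9% of all genes tested had a fold change at or below that of *Ceacam20*, and at 72 h 92.3%.

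Set against each other within a library, the 2 Ceacam genes moved apart at both times. *Ceacam1* had 102 counts for each count of *Ceacam20* in untreated colonoids at 48 h and 32.1 with butyrate. At 72 h the ratio was 174 in untreated colonoids and 61.4 with butyrate. On the log2 scale the ratio differed with butyrate by −1.67 (−1.81 to −1.53) after 48 h and −1.50 (−1.67 to −1.32) after 72 h, so *Ceacam20* gained on *Ceacam1* 3.18-fold and 2.83-fold. Between times the ratio was higher at 72 h than at 48 h, by 0.76 (0.59 to 0.94) in untreated and 0.94 (0.80 to 1.07) in butyrate-treated colonoids on the log2 scale. The difference with butyrate was thus larger than the difference between times under either treatment, and of opposite sign.

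**Figure D2:**
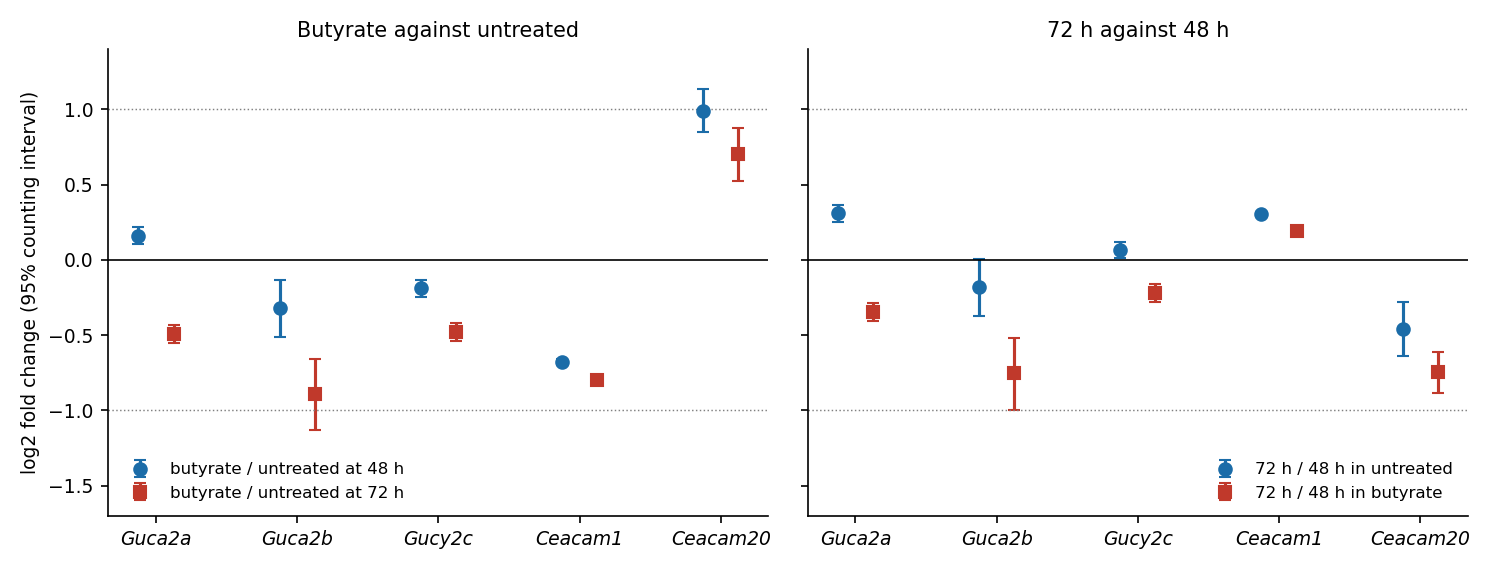
Log2 fold changes of scaled counts for the 5 genes, butyrate against untreated at each time on the left and 72 h against 48 h within each treatment on the right. Points are single library pairs, bars are 95% counting intervals and dotted lines mark 2-fold. *Ceacam20* is the 1 gene above 0 at both times with butyrate, and *Ceacam1* the 1 gene above 0 from 48 h to 72 h with butyrate present.

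None of the 5 genes passed a 2-fold difference with butyrate at either time. Among all genes tested, 6.94% were at least 2-fold higher and 3.08% at least 2-fold lower with butyrate at 48 h. At 72 h these shares were 4.53% and 3.78%. A 1.5-fold threshold was added after seeing the data. At 48 h *Ceacam20* was past it on the higher side, where 13.1% of all genes were, and *Ceacam1* on the lower side, where 8.9% were. At 72 h *Ceacam20* was past 1.5-fold higher (9.5% of all genes), and *Guca2b* and *Ceacam1* were past 1.5-fold lower (8.53%). With 5 genes, 1 of 5 higher and 1 or 2 of 5 lower are counts too small to set apart from these shares. The median log2 fold change of all genes was −0.01 at 48 h and 0.0025 at 72 h, near 0 as the size factors, which are medians of ratios, are built to give.

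The log2 fold change with butyrate was lower at 72 h than at 48 h for all 5 genes, and for 6989 of the 13977 genes tested. The difference of the 2 log2 fold changes was −0.65 (−0.73 to −0.57) for *Guca2a* and −0.57 (−0.87 to −0.27) for *Guca2b*. It was −0.29 for both *Gucy2c* (−0.37 to −0.21) and *Ceacam20* (−0.51 to −0.07), and −0.12 (−0.14 to −0.09) for *Ceacam1*. By these values the 2 ligands differed most between the times and *Ceacam1* least, and the intervals of *Guca2a* and *Ceacam1* were far apart. The interval of *Guca2b* overlapped those of *Gucy2c* and *Ceacam20*, and that of *Ceacam20* overlapped that of *Ceacam1*. Counting error alone therefore leaves the order of these genes unsettled. Treatment time and the single culture behind each library cannot be told apart.

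The 2 untreated libraries differ both in time and in being single cultures, and their comparison shares its libraries with those above. From 48 h to 72 h in untreated colonoids the log2 fold change was 0.31 for both *Guca2a* (0.25 to 0.36) and *Ceacam1* (0.29 to 0.32). *Gucy2c* differed by 0.07 (0.01 to 0.12), a direction that turned with scaling by library totals (−0.010), and *Guca2b* by −0.18 (−0.37 to 0.005), an interval that includes 0. *Ceacam20* was lower at 72 h, by −0.46 (−0.64 to −0.28). The difference between the 2 untreated libraries thus exceeded the butyrate difference of *Guca2a* at 48 h. For *Ceacam1* and *Ceacam20* the intervals of the butyrate differences lay farther from 0 at 48 h than those between the untreated libraries. At 72 h this held for *Ceacam1* (−0.81 to −0.78). For *Ceacam20* the butyrate interval at 72 h, 0.53 to 0.88, overlapped in size that of −0.64 to −0.28 between the untreated libraries. The *Guca2b* intervals of −0.51 to −0.13 with butyrate at 48 h and −0.37 to 0.005 between the untreated libraries overlapped. No member was past 2-fold or 1.5-fold between the untreated libraries. Of all genes, 2.66% were at least 2-fold higher and 1.82% lower at 72 h there, and 6.82% and 5.17% were past 1.5-fold. The balance of these shares turned with the scaling: 953 genes were past 1.5-fold higher and 723 lower with size factors, and 789 and 895 with library totals.

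In butyrate-treated colonoids 4 of the 5 genes were lower at 72 h than at 48 h. The log2 fold change was −0.34 (−0.40 to −0.29) for *Guca2a*, −0.75 (−0.995 to −0.52) for *Guca2b* and −0.22 (−0.28 to −0.16) for *Gucy2c*. *Ceacam20* differed by −0.75 (−0.88 to −0.61), and *Ceacam1* alone was higher, by 0.19 (0.17 to 0.21). None was past 2-fold, against 3.67% of all genes higher and 4.95% lower. *Guca2b* and *Ceacam20* were past 1.5-fold lower, as were 11.9% of all genes, and none was past 1.5-fold higher, against 9.67%.

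The rest of the cyclic GMP pathway was compared next, from the enzymes that act on cyclic GMP to the transporters it adjusts. Of the 13 genes of this list 11 were tested. At 48 h 6 of them were higher and 5 lower with butyrate (median log2 fold change 0.29), and at 72 h 1 was higher and 10 lower (median −0.22), with 6 genes higher at 48 h and lower at 72 h as *Guca2a* was. At 48 h 3 of 11 were past 1.5-fold higher and none lower, and at 72 h none was past it higher and 1 lower. Among all genes tested, 13.1% and 8.9% were past 1.5-fold higher and lower at 48 h and 9.5% and 8.53% at 72 h, 6811 of 13977 were higher at 48 h and 6946 lower at 72 h, and 18.4% were higher at 48 h and lower at 72 h. *Prkg2*, the kinase that cyclic GMP activates at the apical membrane, stood at a log2 fold change of −0.06 after 48 h and −0.28 after 72 h. *Pde9a*, a phosphodiesterase that breaks down cyclic GMP, stood at 0.58 and −0.60, and *Abcc5*, a pump that exports cyclic nucleotides, at 0.61 and −0.09.

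Of the transporters, *Slc26a3*, the chloride and bicarbonate exchanger, had 2983 counts without and 8211 with butyrate at 48 h, and 4385 without and 3498 with it at 72 h. It stood at a log2 fold change of 1.29 (1.23 to 1.35) after 48 h and −0.20 (−0.26 to −0.13) after 72 h. *Slc9a3*, the sodium and proton exchanger NHE3, showed the same pattern of signs, at 0.70 and −0.39. *Cftr*, the chloride channel that the kinase opens, was lower at both times, at −0.43 (−0.51 to −0.34) and −0.14 (−0.22 to −0.05). The 2 absorptive exchangers and the secretory channel were thus on opposite sides of untreated at 48 h and on the same side at 72 h. Other guanylate cyclases were nearly absent: 9 of 10 failed the count filter with at most 11 counts in any library, and *Npr1*, the receptor for natriuretic peptides, had 8, 42, 10 and 14 counts.

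Other genes of the surface epithelium were compared with the members. All 14 genes of a surface colonocyte list, to which *Slc26a3* also belongs, were tested. At 48 h 12 of 14 were higher with butyrate (median log2 fold change 0.42, 6 past 1.5-fold higher and 2 lower), and at 72 h all 14 were lower (median −0.46, 6 past 1.5-fold lower). Of all 13977 genes tested, 6811 were higher at 48 h and 6946 lower at 72 h. The shares of all genes past 1.5-fold were 13.1% higher and 8.9% lower at 48 h and 8.53% lower at 72 h. Such a change of sign, higher at 48 h and lower at 72 h, was found in 12 of these 14 genes and in 18.4% of all genes tested. *Guca2a* was the 1 member that had it. *Car4*, a membrane carbonic anhydrase, stood at 1.87 (1.60 to 2.16) and −0.39 (−0.73 to −0.06), and *Tmigd1*, an adhesion molecule of mature enterocytes, at 0.53 and −1.55. *Hsd11b2*, which inactivates glucocorticoids, stood at 0.29 and −1.54. *Slc37a2*, a sugar-phosphate transporter, was lower at both times, at −1.24 and −1.94. *Dhrs9*, a retinol dehydrogenase, was also lower at both times, at −0.95 and −0.53, as *Ceacam1* was. No gene of the surface list was higher at both times as *Ceacam20* was. Among all genes tested, 31.3% were lower and 30.4% higher at both times.

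**Figure D3:**
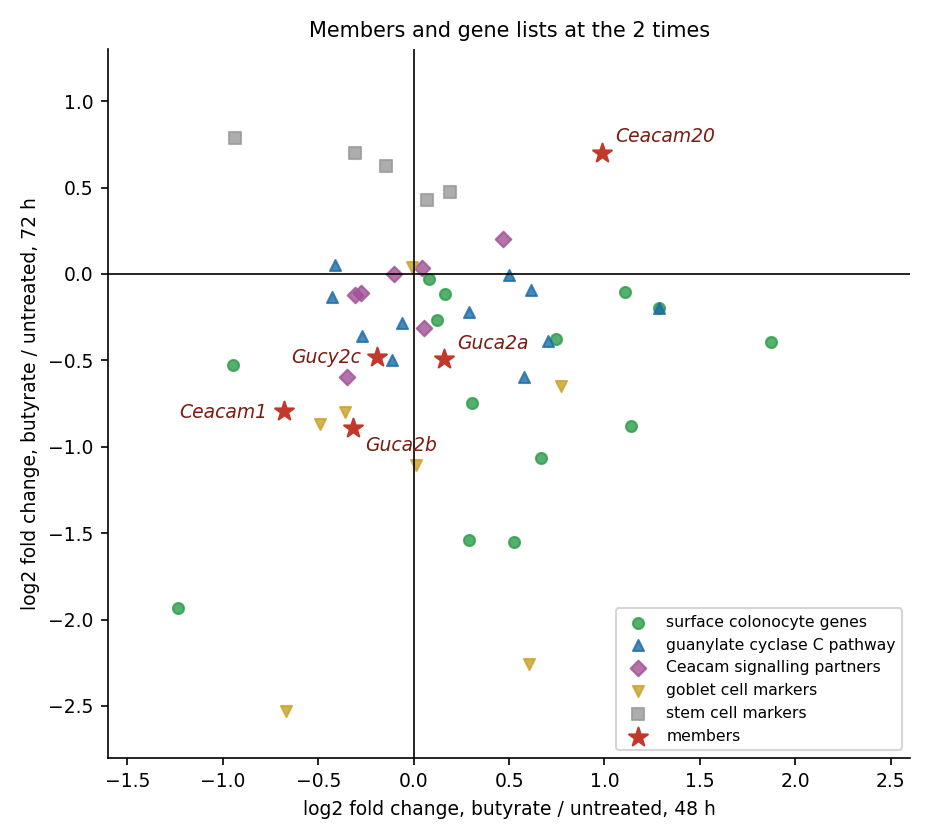
Log2 fold change with butyrate at 48 h (horizontal) against that at 72 h (vertical) for the 5 genes (stars) and the tested genes of 5 lists, 1 point per gene, with *Slc26a3* drawn in 2 lists. *Ceacam20* (0.99, 0.70) lies farthest into the upper right, where 2 stem cell markers and 2 Ceacam signalling partners lie nearer the axes, *Guca2a* lies in the lower right with most surface colonocyte genes, and *Guca2b*, *Gucy2c* and *Ceacam1* lie in the lower left.

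Markers of other cell types also differed between the libraries. The 7 goblet cell markers summed to 113153 scaled counts without and 91656 with butyrate at 48 h, and to 165950 without and 89924 with it at 72 h. Their median log2 fold change came to −0.01 after 48 h and −0.87 after 72 h. At 48 h 3 of the 7 were higher and 4 lower, with *Muc2*, the secreted mucin that makes up most of the sum, at −0.49, *Clca1* at 0.61, *Zg16*, a lectin of the mucus, at −0.67 and *Fcgbp*, a mucus protein, at 0.01. At 72 h 6 of 7 were lower, and the same genes stood at −0.87, −2.26, −2.53 and −1.11. The 6 enteroendocrine markers had medians of 0.03 and −0.92 and the 4 tested tuft cell markers −0.24 and −1.32. The small intestine markers *Sis* and *Fabp2* stood at 0.83 and −0.91 at 48 h and at −1.99 and −1.21 at 72 h, and *Sis* had 422 counts in untreated colonoids at 48 h against 2357 at 72 h. Of the 5 stem cell markers 2 were higher and 3 lower at 48 h (median −0.14), and all 5 were higher at 72 h (median 0.62). Of all 13977 genes tested, 6811 were higher and 7164 lower at 48 h, and 7027 higher and 6946 lower at 72 h. *Lgr5*, the stem cell receptor for R-spondin, stood at −0.94 and 0.79, and *Ascl2*, a stem cell transcription factor, at 0.19 and 0.47. These marker differences accompanied the lower *Guca2a*, *Guca2b* and *Gucy2c* at 72 h, and their part in those differences was not tested.

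The signalling partners of the Ceacam proteins included genes on either side of untreated. Of 8 genes 7 were tested, with medians of −0.10 at 48 h and −0.11 at 72 h, none past 1.5-fold at 48 h and 1 past it, lower, at 72 h, which is near the shares of all genes (13.1% higher and 8.9% lower at 48 h, 9.5% and 8.53% at 72 h). *Ptprh*, the microvillus phosphatase that acts on CEACAM20, stood at 0.05 and −0.31, and *Syk*, the kinase that binds its activating motif, at −0.35 and −0.59. *Ptpn6*, which encodes SHP-1, was higher at both times, at 0.47 (0.36 to 0.58) and 0.20 (0.08 to 0.33), while its binding partner *Ceacam1* was lower. *Lyn*, a Src-family kinase, stood at −0.31 and −0.12. *Havcr2*, a ligand of CEACAM1 on immune cells, had at most 4 counts in any library.

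Of the 13 other Ceacam genes 4 were tested and the remaining 9 had at most 24 counts in any library. *Ceacam10*, a secreted member, had 1289 counts without and 1016 with butyrate at 48 h, and 1121 without and 880 with it at 72 h. Its log2 fold changes of −0.52 (−0.64 to −0.40) and −0.22 (−0.35 to −0.09) were on the side of *Ceacam1*. *Ceacam18* had 65, 69, 69 and 31 counts, with log2 fold changes of −0.09 (−0.60 to 0.43) and −1.0035 (−1.69 to −0.39). *Ceacam12* had 44, 50, 32 and 20 counts, with counting intervals that included 0 at both times. All 4 tested genes were lower at 72 h, and none was higher at both times, as 30.4% of all genes tested were. With 4 genes this does not set *Ceacam20* apart from them.

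The genes beside *Ceacam20* on chromosome 7, in contrast, stood on its side. They were looked at after the values of *Ceacam20* were seen. *Igsf23*, an immunoglobulin-superfamily gene on the − strand 14.7 kb before *Ceacam20*, had 278 counts without and 834 with butyrate at 48 h, and 211 without and 349 with it at 72 h. Its log2 fold changes were 1.41 (1.21 to 1.61) and 0.85 (0.60 to 1.11). *Nlrp9b*, a gene of the NLR family on the same strand as *Ceacam20* and 360 bases after its end, had 163, 389, 165 and 202 counts. Its log2 fold changes were 1.08 (0.81 to 1.36) and 0.42 (0.12 to 0.73). Both neighbours were thus higher with butyrate at both times, as 30.4% of all genes tested were. *Pvr*, 44.3 kb before *Ceacam20*, stood at 0.12 (−0.01 to 0.26) and −0.19 (−0.32 to −0.05). Whether reads of *Ceacam20* were counted for *Nlrp9b* was not tested.

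**Figure D4:**
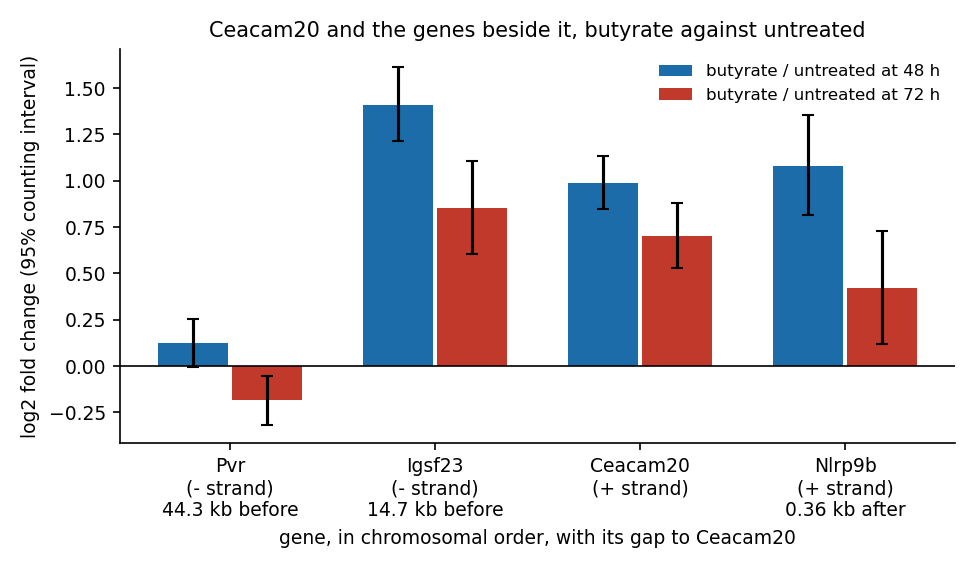
Log2 fold change with butyrate at 48 h and 72 h for *Ceacam20* and the tested genes within 100 kb of it, in chromosomal order but not to scale, with the gap to *Ceacam20* under each name. Bars start at 0 and error bars are 95% counting intervals. *Igsf23*, *Ceacam20* and *Nlrp9b* are above 0 at both times, and *Pvr* is near 0.

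Genes near the other members were looked at in the same way. Around the guanylin genes, *Foxj3* stood at 0.08 and −0.08 and *Hivep3* at −0.09 and −0.30, while *Frg2f1*, 98.2 kb from *Guca2a*, stood at −0.26 (−0.78 to 0.26) and −0.61 (−1.24 to −0.02) on 38 to 67 counts, against −0.49 and −0.89 for *Guca2a* and *Guca2b* at 72 h. Near *Gucy2c*, *Plbd1* was higher at both times (0.63 and 0.29), and *Atf7ip* was near 0 at both (−0.02 and 0.00). *H2afj* was at 0.28 and −0.42 (−0.56 to −0.29), *Wbp11* at −0.06 and 0.16, *Hist4h4* at 0.56 (−0.06 to 1.23) and 0.17, and *BC049715*, with 8 to 23 counts, at 0.14 and −1.30 (−2.76 to −0.18). Near *Ceacam1*, *Lipe* stood at −0.18 and 0.09.

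The promoters of the 2 Ceacam genes are shown because the genes stood on opposite sides of untreated. Each is the 250 bases before the RefSeq start site on GRCm38.p6, read 5′ to 3′ on the gene's strand, at chr7:19965162-19965411 (+) for *Ceacam20* and chr7:25477626-25477875 (−) for *Ceacam1*. Capitals mark matches, on either strand, to TTTAT (the core of Cdx sites), CAAAG (within Hnf4 sites) and GGGCGG (the GC box).
*Ceacam20*: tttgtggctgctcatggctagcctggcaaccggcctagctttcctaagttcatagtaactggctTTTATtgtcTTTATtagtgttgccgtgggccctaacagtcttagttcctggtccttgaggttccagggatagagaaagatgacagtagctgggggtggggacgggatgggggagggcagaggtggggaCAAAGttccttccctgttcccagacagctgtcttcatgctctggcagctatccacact
*Ceacam1*: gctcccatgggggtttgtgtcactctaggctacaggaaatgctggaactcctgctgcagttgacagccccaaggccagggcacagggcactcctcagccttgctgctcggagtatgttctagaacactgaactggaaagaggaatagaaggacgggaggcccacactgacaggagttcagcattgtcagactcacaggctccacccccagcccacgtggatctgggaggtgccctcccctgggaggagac

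*Ceacam20* held 2 matches to TTTAT, which began 186 and 177 bases before the start, and 1 to CAAAG, 58 bases before it. *Ceacam1* held none of the 3 motifs, nor did *Guca2a*, and *Guca2b* held 1 CAAAG, 73 bases before its start. Among 32851 promoters of the same length, 37.3% held TTTAT, 48.6% CAAAG and 32.7% GGGCGG, so each of these motifs is common. A match is a run of letters and not a bound site. Of the transcription factors that read such motifs, *Cdx2* stood at 0.13 with butyrate at 48 h and −0.16 at 72 h, and *Hnf4a* at 0.01 and −0.38. *Hnf4g* was lower at both times, at −0.58 and −0.43, and *Klf4* stood at −0.05 and −0.44. Of the 10 intestinal transcription factors none was past 1.5-fold at either time (medians −0.01 and −0.34), a count too small to set apart from the same shares of all genes, 13.1% and 8.9% at 48 h and 9.5% and 8.53% at 72 h.

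The genes with the most similar profiles differed from member to member. Likeness was measured as the Euclidean distance of log2(scaled count + 1), centred per gene, over the 4 libraries, among 10787 genes with a mean scaled count of at least 100. For *Guca2a* the nearest were *S100a6* (0.036), *Akr1c13* (0.043) and *Ksr1* (0.045), and for *Gucy2c* *Slc30a1* (0.030), *Atg4d* (0.041) and *Ctsc* (0.047). Profiles like these were common, with 209 genes within a distance of 0.2 of *Guca2a* and 474 of *Gucy2c*. *Guca2b* had 4 genes within that distance, led by *Fxyd3* (0.035), *A1cf* (0.15) and *Neurod1* (0.17). *Ceacam1* had 25, led by *Tinag* (0.046), *Fev* (0.051) and *Zfp9* (0.085). *Ceacam20* had 13, led by *Morn2* (0.095), *Rec8* (0.11) and *Nab2* (0.12). No member appeared among the nearest genes of another. With 4 libraries many genes share a profile, so these distances describe the libraries only.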

How the data were processed

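Poly-A RNA of 4 colonoid cultures was profiled by bulk RNA-seq, 1 library each. The authors deposited estimated counts per gene, in whole numbers, without normalisation. The submitters' processing notes name kallisto 0.44.0 and GRCm38.p6, and the study's methods name tximport for the sums per gene. Reads shared by similar genes are divided by estimate. Libraries were mapped to groups from the sample labels. Of 36144 gene names, 2 listed more than once were left out, and the 13977 genes with over 10 counts in 2 libraries or more were tested, the filter of the study's methods. Counts were divided by DESeq2 1.42.0 size factors (R 4.3.3), and fold changes were taken as log2 of scaled counts with a pseudocount of 1. With 1 library per group, no test was made and no p-value is given. Intervals are exact binomial or Poisson at 95%, except differences of 2 log2 fold changes and ratio changes (delta method), and cover counting error only. At totals of 20790225 to 24207840 counts, 3 counts, the limit that a count of 0 allows, are 0.124 to 0.144 CPM. Calculations were made in Python 3.11.15 with scipy 1.17.1 and were tested on simulated data.

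The genes named are the 5 members, from each list the 4 tested genes with the largest absolute log2 fold change at either time, *Prkg2*, *Cftr*, *Slc9a3*, *Ptprh*, *Syk*, *Cdx2* and *Hnf4a* whatever their values, and the 3 genes nearest to each member; of the marker lists mainly summed levels are given. Genomic neighbours and *Dhrs9* were added after their values were seen. A few of these genes are not reported here. The members, lists and rule were chosen with earlier results of these data known. Positions and exon lengths came from GENCODE M21 (GRCm38) by symbol, for 13933 of 13977 genes, and promoters from RefSeq (GRCm38.p6), where 4 of 5 members matched and *Gucy2c* did not. The alternatives were edgeR 4.0.16 TMM factors, library totals with and without mitochondrial genes, size factors from all genes, a pseudocount of 5, other count filters and longest-transcript lengths.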

Additional observations from a re-analysis of the deposited data

Results flagged for a closer look

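The difference of *Guca2a* between butyrate-treated and untreated colonoids had opposite signs at the 2 times, at 0.16 on the log2 scale after 48 h and −0.49 after 72 h. The butyrate library was above its untreated culture at the earlier time and below it at the later one. With 1 library per condition the difference between the times was not tested. Each counting interval excluded 0, and the sign at each time was the same with edgeR TMM factors, library totals with or without mitochondrial genes, size factors from all genes and a pseudocount of 5.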

How the results depend on the processing

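Of 50 alternative values of the members' fold changes with butyrate, 49 stayed within the counting interval and none changed sign. The exception was *Ceacam1* at 72 h, at −0.744 with library totals. Of 50 values over time 45 stayed, 4 moved and 1 changed sign: *Gucy2c* from 48 h to 72 h in untreated colonoids, 0.07 as reported, was −0.010 with library totals, a scaling that shifted the median of all genes by −0.08 in this comparison. The change of the *Ceacam1* fold change from 48 h to 72 h was −0.0702 with library totals and −0.0884 with totals without mitochondrial genes. With library totals the median of all genes shifted by 0.05 for butyrate at 72 h. Genes at least 2-fold higher and lower numbered 970 and 430 at 48 h and 633 and 529 at 72 h. With a mean scaled count of at least 50 they were 458 and 179, and 270 and 187, and with every gene that had a count 2332 and 1997, and 2253 and 1752, since these filters test fewer or more genes. Between the untreated libraries they were 372 and 255, against 229 and 167 with a pseudocount of 5, 88 and 97 with a mean of at least 50, and 1417 and 1807 with every gene. Of the members' levels per length, 16 of 20 moved with the longest transcript, and of 162 list medians 158 stayed. No paired analysis was possible because no replicate exists to pair. The 1.5-fold threshold and the ratios within a library were added after seeing the data. With no replicate, the spread between cultures is unknown.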
